A study of Mus musculus with 9 samples.

Results

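Interferon-stimulated genes are the genes that cells switch on when an interferon binds its receptor, and 48 of them were followed here in mouse colonic mucosa. They were taken from a list of gene symbols that was chosen with earlier results of these data known. Where a gene had several probe sets, the one with the highest mean across the 9 arrays stood for it. Of the 48, 45 had a probe set paired with that gene alone, out of 18194 genes on the array, and 43 were among the 11274 genes that passed the filter on low values. Oas1g and Ifi44 had no paired probe set in the annotation used, and the only Isg15 probe set was paired with several genes, so these 3 have no value here. Oas3 and Mx2 were measured but reached a log2 value of 4 on fewer than 3 arrays and were not tested.

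The arrays are Affymetrix mouse expression arrays, 3 for each of 3 groups of male C57BL/6 mice aged 6 weeks. The first group is wild type (WT), the second is Gas-/- (GasKO), which lacks the gastrin gene, and the third carries the hGAS transgene (hGAS), for which the labels name no promoter. The tissue was colonic mucosa lifted off with PBS under the submucosa, and its RNA was a mixture of all cells in it. The labels do not say whether the 3 arrays of a group came from 3 mice, so every p-value here measures the spread between these samples only. Values are the deposited log2 GCRMA values, on which a difference of 1 is a 2-fold change.

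Type I and type III interferons act through the kinases JAK1 and TYK2 and a transcription factor complex that includes STAT2 and IRF9 and binds the interferon-stimulated response element (ISRE) in promoters. Interferon gamma acts through another promoter element, the gamma-activated site, and it is the main inducer of the GBP and IRG families of GTPases. Many products of these genes sense or destroy viral RNA, and in the gut both epithelial cells and leukocytes of the lamina propria make them.

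The promoters show what the members share in sequence. RefSeq promoters (build GRCm38.p6), from 250 bases before to 50 bases after the gene's start, were at hand for 35 of the 48 members. The ISRE core was searched as GAAANNGAAA on both strands, and the gamma-activated site as TTCNNNGAA, which reads the same on both strands. The ISRE core lay in the promoters of 19 of the 35 members (54.3%), against 3.99% of 27025 genes with a promoter in the table. The gamma-activated site lay in 9 of the 35 (25.7%), against 9.55% of all genes. Both motifs were found in 5 members, and they overlapped in 1 of them, Bst2. Excerpts of 160 bases ending just before the start are shown for 8 members with the ISRE core, chosen to cover strong, weak and opposite responders, with the core in capitals. They are Ifit1 (chr19:34640729-34640888, plus strand), Ifit3 (chr19:34583369-34583528, plus strand), Oas1a (chr5:120907526-120907685, minus strand), Oas3 (chr5:120777660-120777819, minus strand), Gbp3 (chr3:142559884-142560043, plus strand), Igtp (chr11:58199396-58199555, plus strand), Irgm1 (chr11:48871421-48871580, minus strand) and Slfn9 (chr11:82991831-82991990, minus strand).
Ifit1: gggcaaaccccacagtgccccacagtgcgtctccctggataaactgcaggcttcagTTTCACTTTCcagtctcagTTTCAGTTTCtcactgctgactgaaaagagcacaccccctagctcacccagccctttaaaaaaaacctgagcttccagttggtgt
Ifit3: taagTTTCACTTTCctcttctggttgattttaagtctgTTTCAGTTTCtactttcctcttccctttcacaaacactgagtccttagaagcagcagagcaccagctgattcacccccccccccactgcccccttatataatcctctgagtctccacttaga
Oas1a: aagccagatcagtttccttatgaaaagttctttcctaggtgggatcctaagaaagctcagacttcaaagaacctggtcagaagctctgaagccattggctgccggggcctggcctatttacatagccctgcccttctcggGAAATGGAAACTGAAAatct
Oas3: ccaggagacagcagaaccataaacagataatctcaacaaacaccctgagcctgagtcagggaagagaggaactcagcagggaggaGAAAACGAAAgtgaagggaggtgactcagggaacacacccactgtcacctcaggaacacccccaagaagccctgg
Gbp3: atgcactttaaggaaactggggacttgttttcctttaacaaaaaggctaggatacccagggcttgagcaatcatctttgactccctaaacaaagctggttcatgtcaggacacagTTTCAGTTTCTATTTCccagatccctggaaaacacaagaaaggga
Igtp: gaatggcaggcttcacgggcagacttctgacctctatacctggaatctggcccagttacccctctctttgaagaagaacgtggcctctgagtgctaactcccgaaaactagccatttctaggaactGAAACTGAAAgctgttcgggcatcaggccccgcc
Irgm1: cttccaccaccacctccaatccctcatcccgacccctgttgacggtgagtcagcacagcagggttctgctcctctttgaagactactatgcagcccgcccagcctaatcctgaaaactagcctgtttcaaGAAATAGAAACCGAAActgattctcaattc
Slfn9: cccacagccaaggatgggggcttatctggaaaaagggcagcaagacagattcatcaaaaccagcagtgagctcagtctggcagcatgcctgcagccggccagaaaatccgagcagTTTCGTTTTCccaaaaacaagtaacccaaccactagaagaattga

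In the Ifit1 excerpt 2 cores began 104 and 85 bases before the start, and in Ifit3 they began 156 and 122 bases before it. The 2 cores of Oas1a overlapped and lay 20 and 14 bases before the start, and those of Irgm1 overlapped at 30 and 24 bases. The Irf1 promoter (chr11:53769854-53770013, plus strand) held no ISRE core but a gamma-activated site 90 bases before the start, shown in capitals because Irf1 is the member that changed least among the tested transcription factors.
Irf1: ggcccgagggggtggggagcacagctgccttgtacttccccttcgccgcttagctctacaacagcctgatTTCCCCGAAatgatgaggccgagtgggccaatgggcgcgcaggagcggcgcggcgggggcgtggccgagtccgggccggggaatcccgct

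The ISRE core was found among called and uncalled members alike. It was present in 8 of the 19 members with a promoter that were called higher in GasKO than in WT, among them Ifit1, Ifit3 and Oas1a. It was also present in 7 of the 11 tested members that were not called, in Slfn9, which was lower, and in 5 of 5 GTPases with a promoter. Ifit2, Irf7, Oasl1 and Oasl2 were called higher and had no match to these letters in the window. A match is a description of letters, not evidence that a factor binds there.

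Most members were higher in the mucosa of mice without gastrin. The members were chosen with earlier results of these data known, so the shares below describe them and do not test the list. In GasKO vs WT, 27 of the 43 tested members were called higher by limma at an adjusted p under 0.05, where 6.63% of all 11274 genes tested were called higher. Of these 27, 16 changed at least 2-fold. One member, Slfn9, was called lower, where 5.48% of all genes were. The median difference over the 45 measured members was 0.78 on the log2 scale, against 0.0067 over all genes tested, and 41 of the 45 lay above 0. The 3 GasKO arrays all lay above the 3 WT arrays for 28 tested members, where 16.1% of all genes did so, and all below them for 2, where 15% did.

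The count of 27 changed when single arrays were left out, which alters the test of every gene. Whether the members changed more than other genes in these settings was not tested. It was 13 without GasKO replicate 3, 14 without GasKO replicate 1, 17 without WT replicate 2 or without WT replicate 3, and 31 without GasKO replicate 2. It was 16 when the WT and GasKO arrays were fitted alone. With no filter on low values it was 19 of 45, where 3.4% of 18194 genes were called higher. All 43 tested members would have passed the filter on the WT and hGAS arrays alone, so none entered through high GasKO values.

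**Figure D1:**
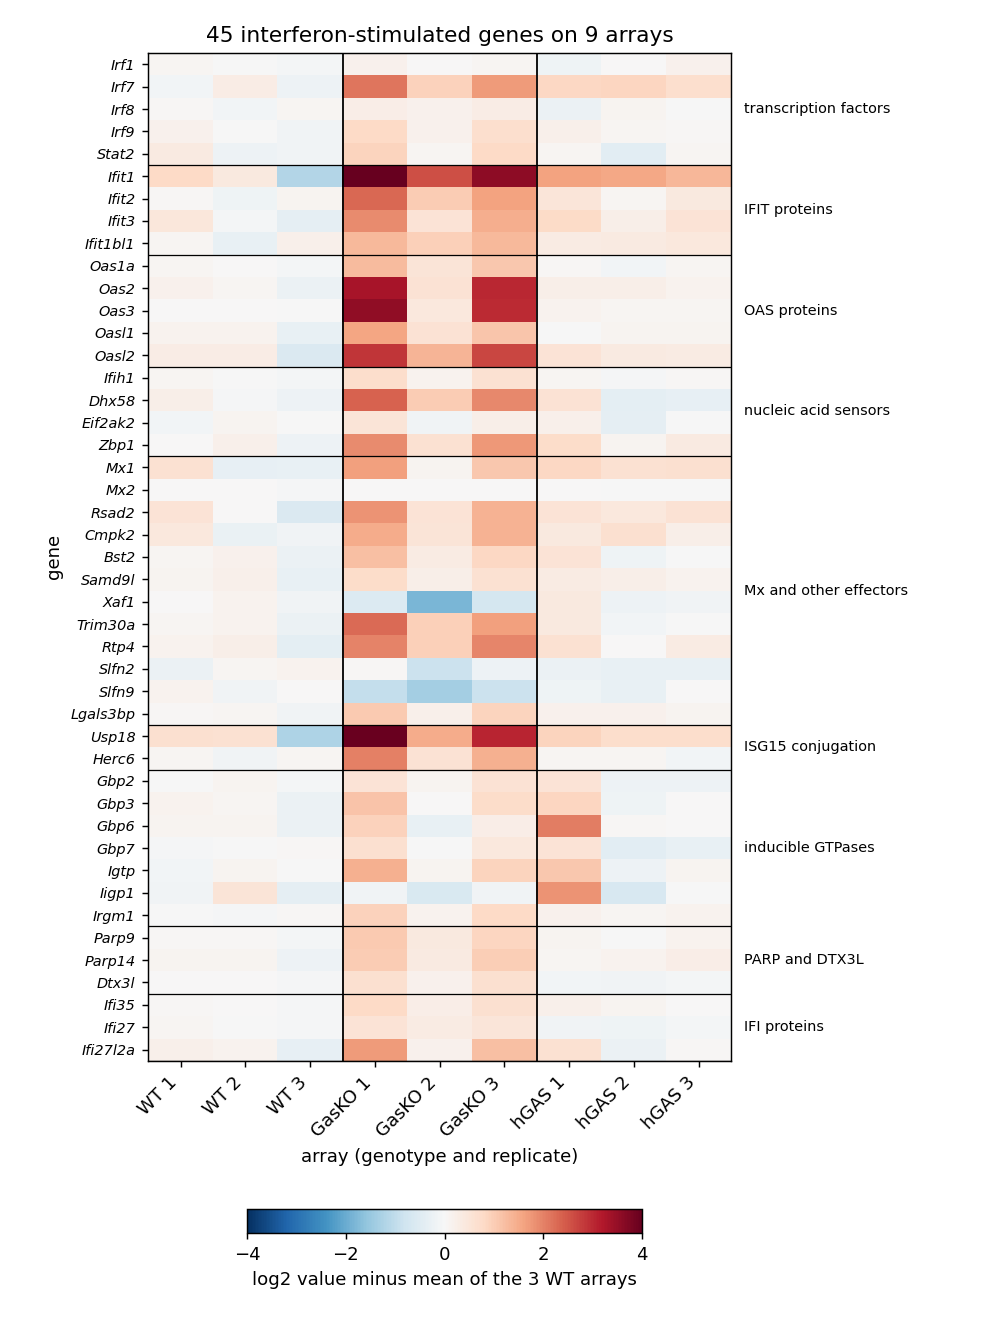
Each row is 1 of the 45 measured genes and each column 1 of the 9 arrays; colour gives the log2 value minus the mean of the 3 WT arrays, and the colour scale ends at 4 in both directions. Most genes are red in GasKO replicates 1 and 3 and paler in GasKO replicate 2, Slfn9 and Xaf1 are blue in GasKO, and Gbp6 and Iigp1 are reddest in hGAS replicate 1.

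Among the transcription factors, Irf7 and Irf9 rose in GasKO and the other 3 did not pass the test. Irf7 is the factor that drives the late, amplified wave of type I interferon. Its log2 values were 7.14, 7.55 and 7.03 in WT, 9.39, 8.16 and 8.93 in GasKO, and 8.06, 8.11 and 7.92 in hGAS. The 3 groups did not overlap, with hGAS between the others. The difference was 1.59 (SE 0.26, adjusted p = 0.00381) in GasKO vs WT, a 3.01-fold change.

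Irf9, the DNA-binding part of the complex on the ISRE, had means of 7.42 ± 0.16 in WT and 7.96 ± 0.34 in GasKO (SD, n = 3). Its difference of 0.55 was called (adjusted p = 0.0491), but the groups touched, since GasKO replicate 2 lay at the level of the highest WT array. That call was kept in 6 of the 19 alternative settings that gave it a value. Stat2, its partner, differed by 0.59 (adjusted p = 0.148). Irf8, a factor of myeloid and B cells, differed by 0.25 (adjusted p = 0.107). Irf1, a classical early target of interferon gamma, had WT, GasKO and hGAS means of 10.15 ± 0.08, 10.25 ± 0.07 and 10.16 ± 0.16 (SD, n = 3), and its differences in the 3 comparisons ranged from -0.09 to 0.10.

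The IFIT genes, whose products bind foreign RNA lacking the host's cap marks, were called higher in GasKO in 4 of 4 cases. Ifit1 read 6.32, 5.93 and 4.36 in WT, 9.69, 8.11 and 9.12 in GasKO, and 7.15, 7.10 and 6.87 in hGAS. All GasKO arrays stood above all others, and all hGAS arrays stood above all WT arrays. Its GasKO vs WT difference of 3.44 (SE 0.50, adjusted p = 0.00186) was the largest of all members, a 10.8-fold change. WT replicate 3 was the lowest of the 9 arrays for this gene.

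Ifit1bl1, a close relative in the same cluster, read 11.64, 11.26 and 11.76 in WT, 12.85, 12.51 and 12.86 in GasKO, and 11.88, 11.92 and 11.97 in hGAS. The 3 groups again did not overlap, and GasKO was highest. The difference of 1.19 in GasKO vs WT (SE 0.13) had the smallest adjusted p of all members in that comparison (0.000319). Ifit2 read 6.44, 6.22 and 6.50 in WT, 8.68, 7.41 and 7.98 in GasKO, and 6.86, 6.47 and 6.76 in hGAS. WT and hGAS overlapped, and GasKO was 1.64 above WT (SE 0.26, adjusted p = 0.00326). Ifit3 differed by 1.29 (SE 0.32, adjusted p = 0.0269), a call that was lost in 6 of 20 alternative settings.

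The OAS genes encode synthetases of 2-5A, the messenger that activates RNase L, and relatives without that activity. All 4 tested members were called higher in GasKO. Oas1a read 10.05, 9.99 and 9.91 in WT, 11.26, 10.49 and 11.06 in GasKO, and 10.05, 9.88 and 10.06 in hGAS. WT and hGAS were interleaved below GasKO, which was 0.95 higher than WT (SE 0.16, adjusted p = 0.00436). Oas1a has near-identical neighbours such as Oas1g, and their signals may not be separable on this array.

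Oasl2, an OAS-like protein, read 8.08, 8.08 and 7.21 in WT, 10.65, 9.16 and 10.46 in GasKO, and 8.33, 8.14 and 8.13 in hGAS. GasKO was 2.30 above WT (SE 0.36, adjusted p = 0.00298). Oasl1, which restrains Irf7 translation, read 7.67, 7.70 and 7.26 in WT, 9.11, 8.11 and 8.65 in GasKO, and 7.54, 7.66 and 7.65 in hGAS. Its difference was 1.08 (SE 0.22, adjusted p = 0.0103). In both genes the lowest GasKO array, replicate 2, was still above every WT array.

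Oas2 and Oas3 showed the widest spread within GasKO and were singled out after their values were seen. Oas2 read 5.02, 4.95 and 4.62 in WT, 8.15, 5.43 and 7.89 in GasKO, and 5.11, 5.11 and 5.01 in hGAS. GasKO replicates 1 and 3 were well clear of all other arrays, while replicate 2 was 0.41 above the highest WT array. The mean difference of 2.30 carried an SE of 0.57 (adjusted p = 0.0294) and its call was kept in 11 of 19 alternative settings. Oas3 read 2.62, 2.63 and 2.58 in WT, 6.16, 3.03 and 5.60 in GasKO, and 2.76, 2.70 and 2.68 in hGAS. It was above a log2 value of 4 on GasKO replicates 1 and 3 alone.

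**Figure D2:**
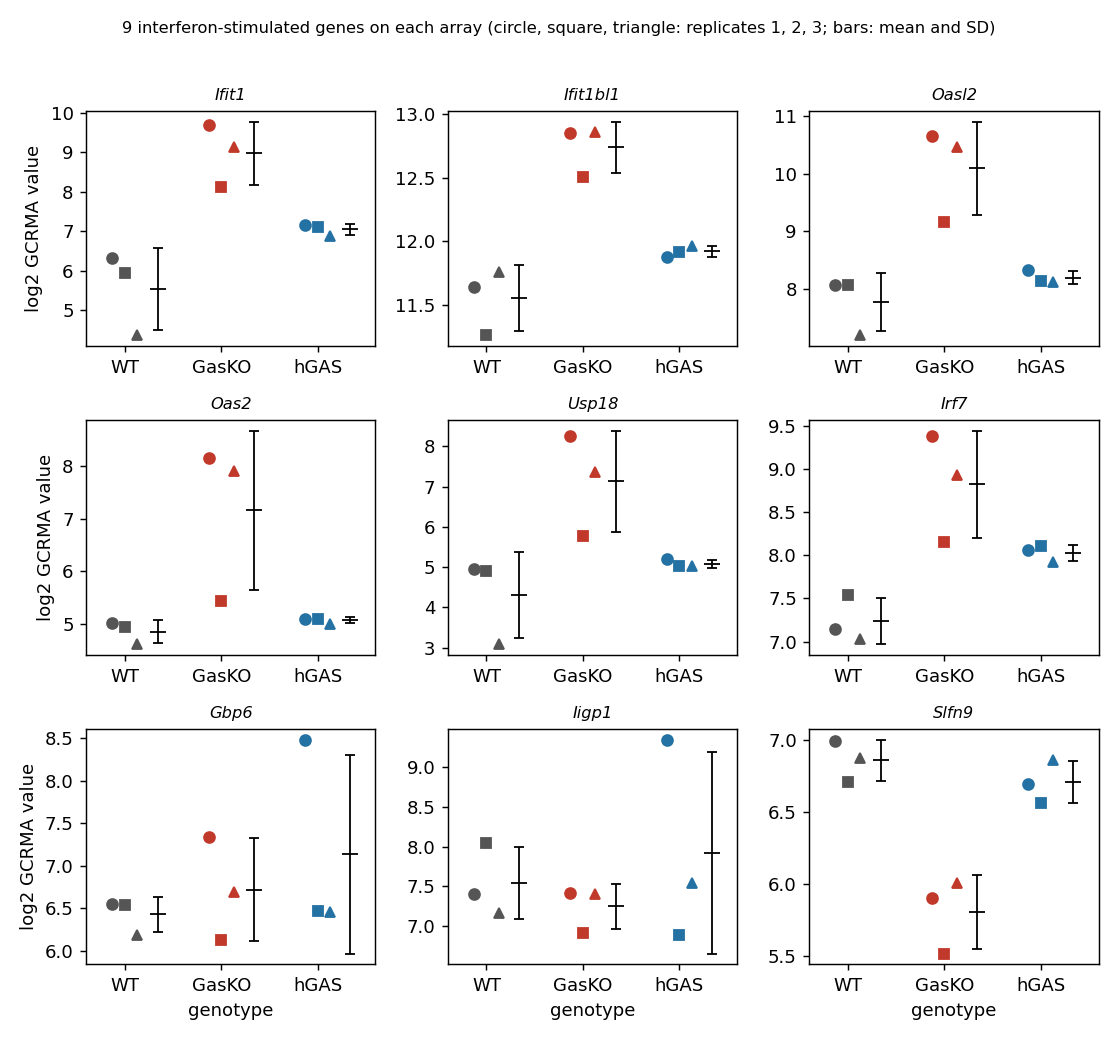
Log2 GCRMA values (vertical axes, which do not start at 0) of 9 genes on each array by genotype, with the mean and SD of each group beside the points. GasKO is highest for Ifit1, Ifit1bl1, Oasl2, Oas2, Usp18 and Irf7, replicate 2 (square) being its lowest array; Slfn9 is lowest in GasKO, and hGAS replicate 1 (circle) stands alone for Gbp6 and Iigp1.

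Of the sensors of foreign nucleic acid, 3 of 4 were called higher in GasKO. Dhx58 (LGP2), which tunes signalling by the RNA helicases, read 5.24, 4.94 and 4.79 in WT, 7.35, 6.01 and 6.91 in GasKO, and 5.56, 4.59 and 4.65 in hGAS. GasKO was 1.77 above WT (SE 0.34, adjusted p = 0.00928) with no overlap. Zbp1, a sensor of Z-form nucleic acid that can trigger necroptosis, differed by 1.41 (SE 0.30, adjusted p = 0.0142). Ifih1 (MDA5), the sensor of long double-stranded RNA, differed by 0.48 (SE 0.13, adjusted p = 0.0339) and kept its call in 10 of 20 settings. Eif2ak2 (PKR), which halts translation, differed by 0.21 (adjusted p = 0.504), with overlapping groups on the probe set used. Its other probe sets, which were not tested, differed by 0.72 and 0.27, with every GasKO array above every WT array.

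Of 12 Mx proteins and other antiviral effectors, 6 were called higher in GasKO and 1 lower. Trim30a, a regulator of inflammatory signalling, read 7.46, 7.54 and 7.17 in WT, 9.65, 8.35 and 9.03 in GasKO, and 7.77, 7.29 and 7.39 in hGAS. Its difference was 1.62 (SE 0.28, adjusted p = 0.00462). Rtp4, a receptor chaperone induced by interferon, read 8.16, 8.26 and 7.61 in WT, 9.997, 8.97 and 9.94 in GasKO, and 8.61, 8.03 and 8.33 in hGAS. Its difference was 1.63 (SE 0.28, adjusted p = 0.00465). In both genes the GasKO arrays were above all 6 others.

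The remaining 4 called effectors changed less firmly. Rsad2 (viperin), which makes a chain-terminating nucleotide, was 1.24 higher (adjusted p = 0.0365), although GasKO replicate 2 fell within the WT range. Cmpk2, a mitochondrial nucleotide kinase next to Rsad2, was 1.14 higher (adjusted p = 0.0203). Lgals3bp, a secreted glycoprotein, was 0.71 higher (adjusted p = 0.0296). Samd9l, which restricts viral translation, was 0.53 higher (adjusted p = 0.0419). Bst2 (tetherin), which holds virus particles at the cell surface, was 0.79 apart with no overlap and missed the threshold (adjusted p = 0.065). Mx1 differed by 0.94 (adjusted p = 0.134) with overlapping groups, and Mx2 lay between 2.24 and 2.30 on every array. Slfn2, a schlafen gene of lymphocytes, differed by -0.34 (adjusted p = 0.34).

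Slfn9 went the other way. This schlafen gene read 6.99, 6.71 and 6.88 in WT, 5.90, 5.51 and 6.00 in GasKO, and 6.70, 6.57 and 6.86 in hGAS. The 3 GasKO arrays were below the other 6. GasKO was lower than WT with a difference of -1.06 (SE 0.14, adjusted p = 0.00104), a 2.08-fold change, and the call was kept in all 20 alternative settings.

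Xaf1, an interferon-induced promoter of apoptosis, gave opposite readings from its 2 probe sets and was looked at after its values were seen. The probe set used by the rule read 7.36, 7.48 and 7.19 in WT, 6.80, 5.52 and 6.64 in GasKO, and 7.74, 7.15 and 7.19 in hGAS, a GasKO vs WT difference of -1.02 (adjusted p = 0.0566). The other probe set read 2.92, 2.93 and 2.87 in WT, 10.14, 9.29 and 9.90 in GasKO, and 2.92, 2.95 and 2.92 in hGAS, a difference of 6.87 between the means. On that probe set WT and hGAS were at background and all 3 GasKO arrays were high. The direction of Xaf1 therefore depends on the probe set, and no single direction is given for it here.

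**Figure D3:**
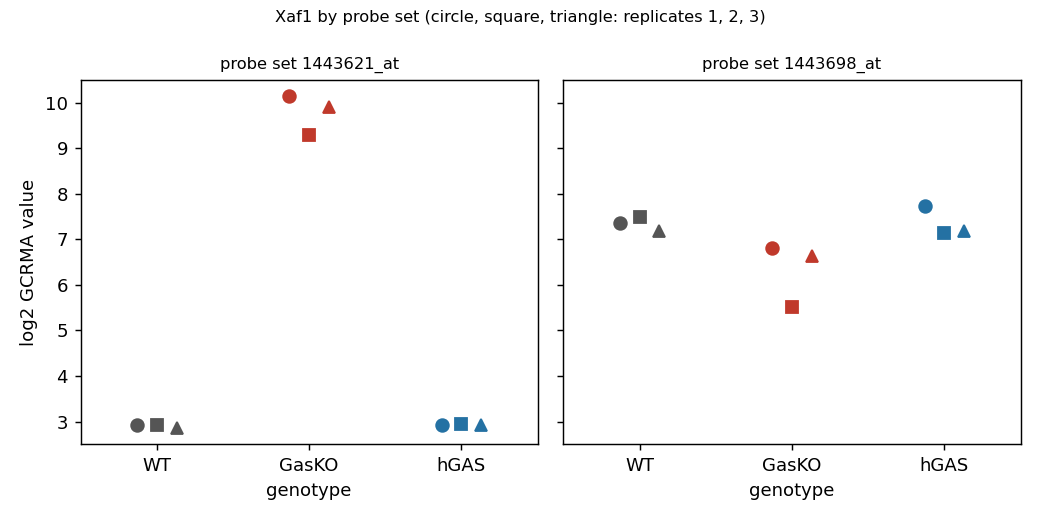
Log2 GCRMA values (vertical axis, not starting at 0) of the 2 Xaf1 probe sets by genotype, 1 point per array. In the left panel the GasKO arrays read 9.29 to 10.14 and the other 6 arrays under 3; in the right panel, the probe set used by the rule, the GasKO arrays are the lowest.

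The ISG15 pathway was represented by Usp18 and Herc6, both called higher in GasKO. Usp18, shown in full for its wide spread after its values were seen, removes ISG15 from proteins and damps the type I receptor. It read 4.95, 4.91 and 3.08 in WT, 8.26, 5.79 and 7.37 in GasKO, and 5.20, 5.03 and 5.02 in hGAS. GasKO was 2.82 above WT (SE 0.62, adjusted p = 0.0167), a 7.08-fold change, and the spread within both groups was wide. Herc6, the mouse ligase that attaches ISG15, read 5.35, 5.12 and 5.34 in WT, 7.27, 5.85 and 6.70 in GasKO, and 5.35, 5.34 and 5.15 in hGAS. Its difference was 1.34 (SE 0.28, adjusted p = 0.0139).

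All 3 genes of the PARP and DTX3L group and 2 of 3 IFI genes were called higher in GasKO. Parp9, which works with the ubiquitin ligase Dtx3l, read 8.96, 8.98 and 8.84 in WT, 9.98, 9.31 and 9.80 in GasKO, and 9.05, 8.90 and 9.08 in hGAS, and it was 0.77 higher in GasKO (SE 0.14, adjusted p = 0.00718). Dtx3l read 8.40, 8.39 and 8.33 in WT, 9.01, 8.56 and 9.01 in GasKO, and 8.27, 8.22 and 8.30 in hGAS, and it was 0.49 higher in GasKO (SE 0.11, adjusted p = 0.0198). Parp14, a related transferase, was 0.78 higher (SE 0.17, adjusted p = 0.0149). All 3 genes had GasKO arrays above every WT array.

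Ifi35, a leucine-zipper protein of the interferon response, read 10.39, 10.37 and 10.31 in WT, 11.15, 10.63 and 11.00 in GasKO, and 10.55, 10.48 and 10.38 in hGAS, and was 0.57 higher in GasKO (SE 0.11, adjusted p = 0.00984). Ifi27, a small membrane protein, read 9.57, 9.50 and 9.46 in WT, 10.06, 9.83 and 10.01 in GasKO, and 9.38, 9.35 and 9.43 in hGAS. Its difference was only 0.45, but its SE was 0.07 (adjusted p = 0.00172), and hGAS was the lowest group without overlap. Its relative Ifi27l2a, shown in full for its spread after its values were seen, read 9.61, 9.54 and 9.09 in WT, 11.12, 9.59 and 10.599 in GasKO, and 10.01, 9.17 and 9.44 in hGAS. It had a wide spread, with an SD of 0.776 over the GasKO arrays, and its difference of 1.03 (SE 0.35) did not pass the test (adjusted p = 0.0969).

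The interferon-inducible GTPases, which attack the vacuoles of intracellular microbes, were mostly not called in GasKO vs WT. Of 7 tested, only Irgm1 was called higher in GasKO, by 0.63 (SE 0.17, adjusted p = 0.038), a call kept in 9 of 19 alternative settings. The others differed from WT by between -0.29 (Iigp1, adjusted p = 0.773) and 0.80 (Igtp, adjusted p = 0.188). Their median difference was 0.40, and 6 of the 7 lay above 0. The median was 0.55 for the transcription factors, 0.57 for the IFI genes and 0.75 for the Mx proteins and other effectors. It was 0.77 for the PARP and DTX3L group, 0.95 for the sensors and 2.08 for the ISG15 pathway. For the 4 IFIT genes it was 1.47, and for the 5 OAS genes 2.30. Whether the GTPases respond differently from the other members was not tested.

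**Figure D4:**
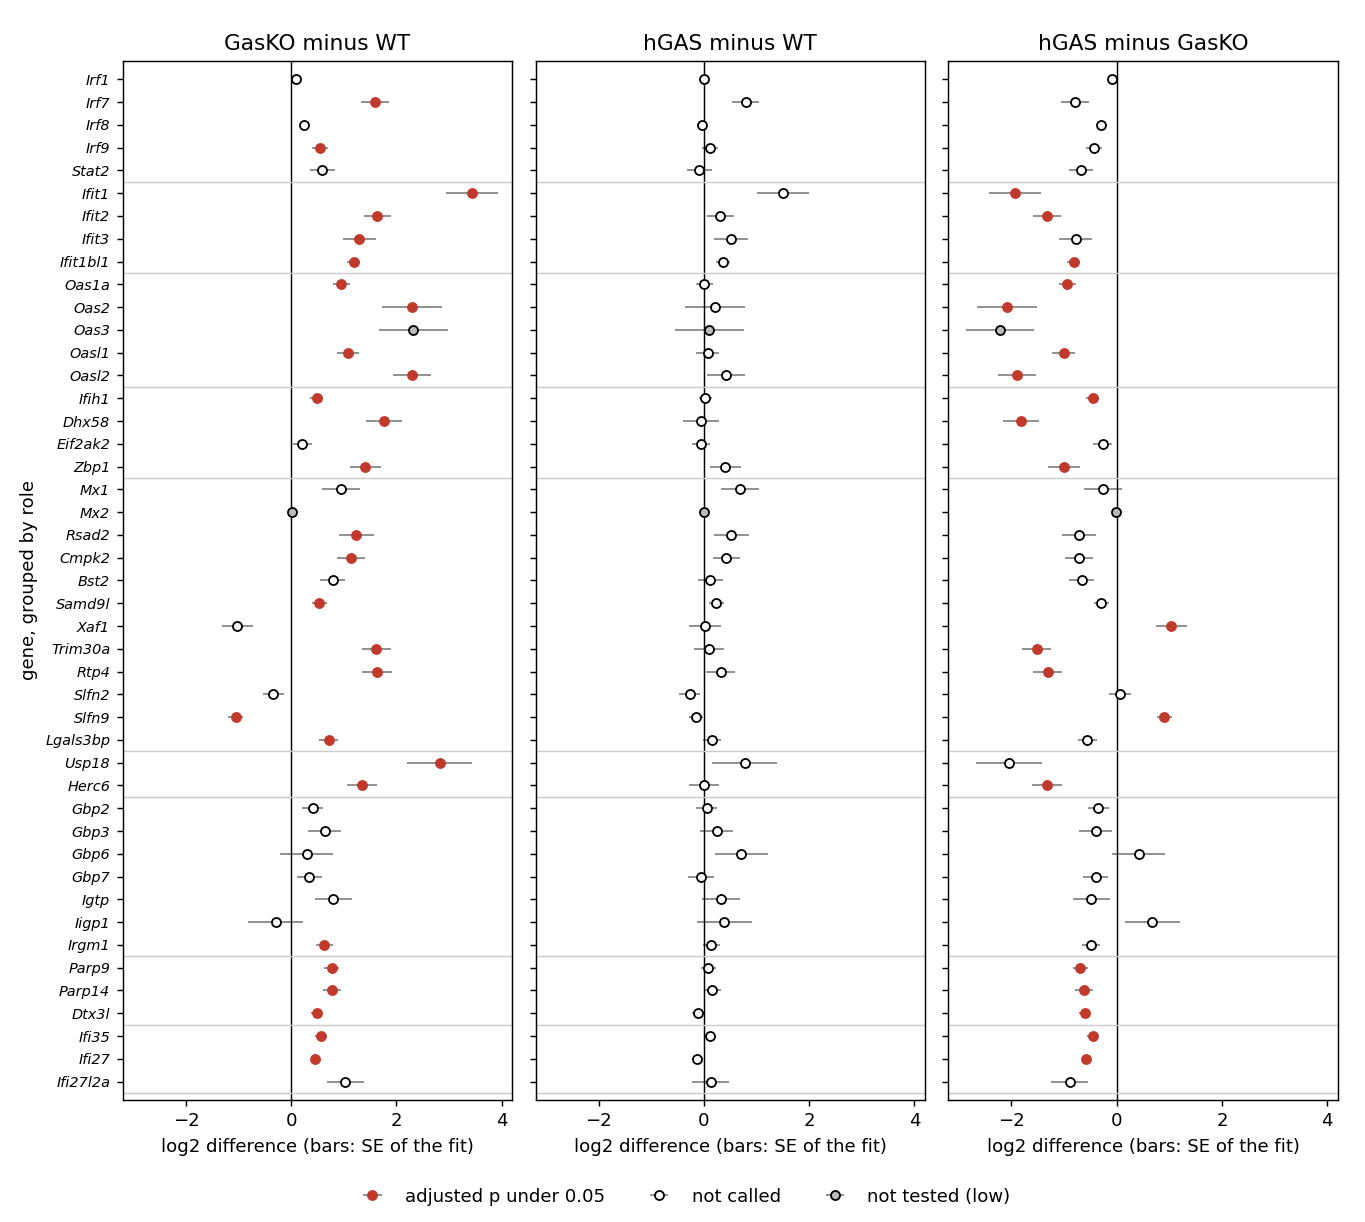
Log2 differences (points) with the standard error of the limma fit (bars) for the 45 measured genes in the 3 comparisons, grouped by role; filled red points have an adjusted p under 0.05 and grey points were not tested. GasKO minus WT runs mostly to the right and hGAS minus GasKO mostly to the left, while no gene is called in hGAS minus WT.

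Within genotypes the members moved together. In GasKO, replicate 2 was the lowest of the 3 arrays for all 45 measured members, where it was the lowest for 37.8% of all genes tested. Replicate 1 was the highest for 40 of the 45. The median gap between replicates 1 and 2 was 0.90, and it ran from 0.01 (Mx2) to 3.12 (Oas3), beside a median of 0.0071 over all genes tested. Even so, replicate 2 was above every WT array for 29 of the 45 members, where this held for 29.1% of all genes tested. It was so for 25 of the 27 called higher, but these were picked by a test that used this array.

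The spread inside GasKO was therefore far wider for the members than for other genes. The median SD over the 3 GasKO arrays was 0.467 for tested members and 0.0804 for all genes tested. In WT the same medians were 0.207 and 0.0932, and in hGAS they were 0.149 and 0.0930. Members share arrays, so these counts describe 3 samples, not 45 independent observations. WT replicate 3 was the lowest WT array for 32 of the 45 members, where it was the lowest for 31.7% of all genes. Centred gene by gene on the 9-array mean, the average level of the members was -0.24, -0.31 and -0.56 in WT, 0.96, -0.05 and 0.69 in GasKO, and 0.05, -0.31 and -0.22 in hGAS.

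No member was called in hGAS vs WT by limma, in either direction, where 0.639% of all genes were called higher and 0.523% lower. At an unadjusted p under 0.05, 3 of the 43 tested members were higher, Ifit1, Ifit1bl1 and Irf7, and 0 were lower, where 14.2% of all genes were past that mark in either direction. The smallest adjusted p among members was 0.203, for Irf7, whose hGAS arrays were 0.79 above WT (SE 0.26). Ifit1 was 1.50 above WT (SE 0.50, adjusted p = 0.204) and Ifit1bl1 was 0.37 above it (SE 0.13, adjusted p = 0.233). In each of these 3 genes the hGAS arrays were all above the WT arrays. The groups did not overlap, with hGAS higher, for 7 tested members, where 9.35% of all genes did so, and with hGAS lower for 2, Dtx3l and Ifi27, where 8.36% did.

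The median difference of the 45 members in hGAS vs WT was 0.12, and it was 0.06 without WT replicate 3 or without hGAS replicate 1. For Oas1a, Herc6, Irf1 and Xaf1 the difference rounded to 0.01. The OAS genes ranged from 0.01 to 0.41, and Dhx58 was at -0.06. GasKO vs WT and hGAS vs WT are measured against the same WT arrays.

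In hGAS vs GasKO, 18 tested members were called lower, where 8.51% of all genes were, and 2 were called higher, Slfn9 and Xaf1, where 8.05% were. Groups did not overlap for 22 members with hGAS lower (18.4% of all genes) and for 2 with hGAS higher (18.2%). The count of 18 was 11 without GasKO replicate 1 or without GasKO replicate 3, and 29 without GasKO replicate 2. It was 12 without hGAS replicate 3, and 25, the 18 among them, with the replicate number as a block. The main fit did not use the replicate number. Whether the members changed more than other genes in these settings was not tested. The median difference was -0.62. This comparison and GasKO vs WT share the GasKO arrays, so they are not independent.

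The members called lower in hGAS than in GasKO included 3 of 4 IFIT genes, all 4 tested OAS genes and all 3 of the PARP and DTX3L group. Oasl2 differed by -1.89 (SE 0.36, adjusted p = 0.00681), Dhx58 by -1.82 (SE 0.34, adjusted p = 0.00632) and Trim30a by -1.52 (SE 0.28, adjusted p = 0.00518). Ifit1bl1 differed by -0.82 (SE 0.13, adjusted p = 0.00241). Ifi27 had the smallest adjusted p of any member in this comparison (0.000305), with a difference of -0.58. Slfn9 was 0.91 higher in hGAS than in GasKO (SE 0.14, adjusted p = 0.00203). Xaf1 was 1.04 higher on the probe set used (adjusted p = 0.0436), which is opposite to its other probe set.

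Within the hGAS group, all 7 GTPases read highest on replicate 1. Over all 9 arrays only 2 of the 7 read highest there, and the others read highest on a GasKO array. On hGAS replicate 1 all 7 were above every WT array, as were 30 of the 45 measured members (66.7%) and 30.6% of all genes tested. Gbp6 and Iigp1 were above every GasKO array as well. These 2 were singled out after their values were seen. Gbp6, a guanylate-binding protein, read 6.55, 6.54 and 6.19 in WT, 7.34, 6.12 and 6.70 in GasKO, and 8.48, 6.47 and 6.45 in hGAS. Its second probe set showed the same array apart, at 6.80 against 5.16 and 5.01 on the other hGAS arrays. Iigp1, an immunity-related GTPase, read 7.41, 8.05 and 7.17 in WT, 7.42, 6.92 and 7.41 in GasKO, and 9.34, 6.89 and 7.54 in hGAS.

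Ranked over all 11274 genes tested by hGAS replicate 1 minus the mean of the other hGAS arrays, Iigp1 was first with 2.13 and Gbp6 second with 2.02. Igtp was 8th with 1.11, Gbp3 12th with 0.94, Gbp7 14th with 0.92 and Gbp2 23rd with 0.75. Members outside the GTPases ranked among them, with Dhx58 11th (0.94), Ifi27l2a 26th (0.71) and Bst2 39th (0.65). Irgm1, the seventh GTPase, did not share the excess: it read 7.97, 7.88 and 7.93 in hGAS, all above the highest WT array at 7.84, and its difference between replicate 1 and the other hGAS arrays was 0.06. Without that array, the mean hGAS level of the 7 GTPases differed from WT by between -0.36 (Gbp7) and 0.12 (Irgm1). Ifng, which encodes interferon gamma, lay between 2.41 and 2.46 on every array. Irf1 on hGAS replicate 1 was 0.25 below the mean of the other hGAS arrays.

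The interferon genes that were measured lay at background. Of 19 interferon genes listed, 10 were measured, and all 10 stayed below a log2 value of 4 on every array, including Ifnb1 at 2.17 to 2.22. The listed type III genes, Ifnl2 and Ifnl3, had no value, so their level is not known here. Of 9 measured receptors and kinases, all tested, 1 was called higher in GasKO vs WT, Ifnar2, a chain of the type I receptor, by 0.41 (adjusted p = 0.0346), where 6.63% of all genes were. In hGAS vs GasKO 3 of the 9 were called lower, where 8.51% of all genes were: Ifnar2 (-0.37, adjusted p = 0.0445) and the kinases Jak1 (-0.21, adjusted p = 0.0219) and Jak2 (-0.26, adjusted p = 0.0374). Of 14 tested genes that sense nucleic acids upstream of interferon, Tlr3 was called higher by 0.35 (adjusted p = 0.0173) and Irf3 lower (log2 difference -0.27, adjusted p = 0.0492) in GasKO vs WT. These counts are near the shares of all genes called higher (6.63%) and lower (5.48%) there. In hGAS vs GasKO 2 of the 14 were called lower, where 8.51% of all genes were. They were Irf5, a factor downstream of Toll-like receptors (-0.93, adjusted p = 0.00416), and Trim25, a ubiquitin ligase (-0.37, adjusted p = 0.0354). Of 9 tested brakes on the pathway, Usp18, itself a member, and Socs3 were called higher and Tnfaip3 lower in GasKO vs WT, where 6.63% and 5.48% of all genes were. Socs3, an inhibitor of JAK kinases, differed by 0.67 (adjusted p = 0.0109). Tnfaip3, which restrains NF-kB, differed by -0.60 (adjusted p = 0.000331) in GasKO and by -0.41 (adjusted p = 0.0249) in hGAS, both against WT. In hGAS vs GasKO the brake Ptpn2 was called higher (0.24, adjusted p = 0.0158), where 8.05% of all genes were. Ptpn6 (-0.53, adjusted p = 0.0158) and Irf2 (-0.43, adjusted p = 0.0316) were called lower, where 8.51% were.

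A further list of 88 interferon-stimulated genes outside the 48 gave 70 measured and 49 tested genes. In GasKO vs WT, 10 were called higher and 3 lower, where 6.63% and 5.48% of all genes were. The count of 3 lower is near that share. The median difference over the 70 was 0.26. The 4 with the smallest p were Ly6e (0.57, adjusted p = 0.000357), a membrane protein that limits viral entry, Psmb9 (0.72, adjusted p = 0.00325) and Psmb8 (0.85, adjusted p = 0.00361), subunits of the immunoproteasome, and Ddx60 (2.09, adjusted p = 0.0051), a helicase. The 3 lower genes were Casp4, a sensor of lipopolysaccharide (-1.16, adjusted p = 0.00672), Cxcl10, a chemokine (-0.81, adjusted p = 0.0334), and Isg20, an RNA exonuclease (-0.48, adjusted p = 0.0359). In hGAS vs WT limma called 0 of the 49, and in hGAS vs GasKO 1 higher and 15 lower. In hGAS vs GasKO 8.05% of all genes were called higher and 8.51% lower. The 4 with the smallest p there were Ly6e (-0.85, adjusted p = 2.3e-05), Psmb8 (-0.97, adjusted p = 0.0014), Casp4 (1.37, adjusted p = 0.00218) and Psmb9 (-0.72, adjusted p = 0.00255).

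Several members lie on chromosome 11, which also carries Gast, the gene removed in GasKO. Gast itself was at background on all arrays, between 1.93 and 2.14, so its level does not check the labels. Of 9 measured members on this chromosome, the nearest were Dhx58, with 13 genes between it and Gast, and Ifi35, with 51, both called higher in GasKO. Slfn9 lay 315 genes away on the other side of Gast. Lgals3bp and Irgm1 were also called higher, with 316 and 947 genes between. Slfn2, Xaf1, Igtp and Irf1 were not called on the probe sets used, and the other Xaf1 probe set read 6.87 higher in GasKO. Of all genes tested, 6.63% were called higher in GasKO vs WT and 5.48% lower. Whether sequence carried along with the targeted allele plays a part in these values was not tested.

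Marker genes of leukocytes were, like most members, higher in GasKO than in WT. In hGAS vs WT their median difference was -0.28, where that of the members was 0.12. Of 8 leukocyte markers, 7 were called higher in GasKO vs WT, where 6.63% of all genes were. In hGAS vs WT 1 was called lower (0.523% of all genes), and in hGAS vs GasKO 8 were (8.51%). Their summed linear level was 1975 to 2355 on the WT arrays, 2970 to 3933 on the GasKO arrays and 1611 to 1753 on the hGAS arrays. On GasKO replicates 1, 2 and 3 this sum was 3933, 2970 and 3163, each above every WT array. Like the average level of the members, it was highest on replicate 1 and lowest on replicate 2. For 13 macrophage and monocyte markers, 4 of the 12 tested were called higher in GasKO, and the summed level was 5937 to 6161 in WT and 7548 to 8400 in GasKO. Of 6 measured B cell markers, 3 of the 5 tested were called higher in GasKO vs WT, and in hGAS vs WT 3 were called lower.

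Plasma cell markers were also higher in GasKO. Of 7 tested, 5 were called higher in GasKO vs WT, where 6.63% of all genes were. Xbp1, which epithelial cells also express, was called lower, where 5.48% of all genes were. The median difference of the 8 measured was 0.91, beside 0.67 for the leukocyte markers and 0.23 for the macrophage and monocyte markers. Mzb1, a chaperone of antibody assembly, differed by 2.56 (adjusted p = 0.00573) and Jchain, the joining chain of secreted antibodies, by 1.64 (adjusted p = 0.00414). The summed level of the markers was 18280 to 27130 in WT, 37940 to 41550 in GasKO and 28100 to 35230 in hGAS. GasKO replicate 2, where the members were lowest, had the highest sum.

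Markers of T cells, NK cells and dendritic cells were mostly near background. Of 13 measured T and NK cell markers, 11 stayed below a log2 value of 4 on every array, Cd3e and Gzmb among them. The 1 tested, Thy1, which stromal cells also express, was called higher in GasKO vs WT by 0.76 (adjusted p = 0.00484). Siglech and Xcr1, markers of plasmacytoid and cross-presenting dendritic cells, lay between 2.03 and 2.16 on every array. The adipocyte markers Adipoq, Cidec and Fabp4 differed by 2.04, 1.20 and 0.79 in GasKO vs WT and did not pass the test, with adjusted p-values of 0.144, 0.12 and 0.066. The tissue label was borne out by the 13 measured colon epithelium markers, all of which passed the filter, and their summed level was 125400 to 138000 in WT, 139800 to 142500 in GasKO and 136800 to 142200 in hGAS. The part of these cell types in the members' values was not tested. In such bulk samples fewer cells of a type and less RNA per cell cannot be told apart. The 3' minus 5' log2 difference of the Gapdh control probe sets did not overlap between WT and GasKO: it was -0.176 to -0.138 in WT, -0.117 to -0.0886 in GasKO and -0.154 to -0.0683 in hGAS. The array medians were also apart, at 4.131 to 4.14 in WT, 4.155 to 4.158 in GasKO and 4.144 to 4.153 in hGAS. With each array centred on its median over the genes tested, 27 members were again called higher in GasKO vs WT. The part of the 3' to 5' difference in the members' values was not tested.

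**Figure D5:**
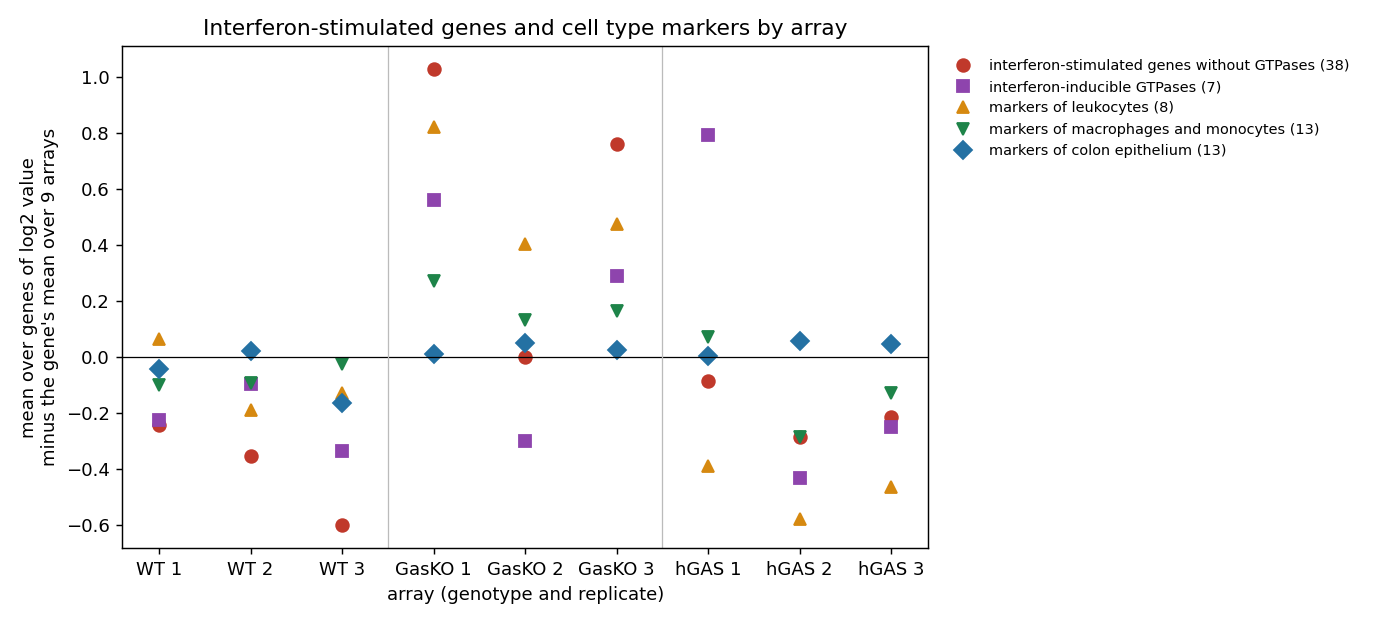
For each array, the average log2 level of a gene group after centring every gene on its 9-array mean (vertical axis), for the GTPases, the other 38 measured interferon-stimulated genes, and 3 sets of cell type markers. In GasKO replicates 1, 2 and 3 the 38 genes average 1.03, -0.0014 and 0.76, and the leukocyte markers 0.82, 0.40 and 0.47. The GTPases have their highest average in hGAS replicate 1 (0.79, beside 0.56 in GasKO replicate 1), where Gbp6 and Iigp1 peak. The medians over the GTPases on these 2 arrays are 0.573 and 0.578.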

How the data were processed

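Per the submitters' processing notes, the authors made the values with GCRMA, version not stated; the range of the deposited values is that of a log2 scale. Per the labels' protocols, RNA was purified with Trizol and labelled by a one-cycle kit. Nothing was renormalised. Scanner files were not used here. Probe sets were named through the platform annotation; the 932 probe sets paired with several genes were left out. Of the members, 20 had over 1 probe set, and 13 are read by a probe set whose ID ending (_s_at, _x_at or _a_at) marks possible matches to other transcripts.

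Genes with at least 3 arrays at log2 4 were tested with limma 3.58.1 in R 4.3.3 (data.table version 1.17.8): lmFit with genotype alone on all 9 arrays, then eBayes with trend, 6 residual and 3.47 prior degrees of freedom. Tests were 2-sided, with Benjamini-Hochberg adjustment over 11274 genes, called at an adjusted p under 0.05; standard errors are limma's moderated ones. The number of arrays limits the precision. The fit was tested on simulated data first. Motif searches and figures used Python 3.11.15, pandas 2.3.3 and matplotlib 3.10.9.

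The members, lists and rules were chosen with earlier results of these data known. By the naming rule, all 48 members are accounted for, the 16 with the smallest F-test p get every array's value, and each list of other interferon genes gives up to 4 called genes with the smallest p. Alternatives covered the filter, scaling, probe set choice, eBayes settings, arrays fitted, array weights, a replicate block and leaving out each array. Same-numbered GasKO and hGAS arrays deviated together (correlations 0.117 to 0.267), and the labels do not say whether they are paired. The main fit did not use the replicate numbers, so its p-values take no pairing into account. The replicate block is given as an alternative only.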

Additional observations from a re-analysis of the deposited data

Results flagged for a closer look

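Some members have further probe sets that the comparisons did not use and that read higher in GasKO than in WT. Only those at least 2-fold higher, with every GasKO array above every WT array, are listed here. Other unused probe sets also read higher in GasKO, by less or with overlapping arrays. As differences of group means on the log2 scale, with WT and GasKO means beside them, they were 6.87 for Xaf1 (2.90 and 9.78), 1.78 for Trim30a (6.49 and 8.27), 1.56 for Zbp1 (4.50 and 6.06), 1.28 for Stat2 (4.29 and 5.57) and 1.10 for Herc6 (3.98 and 5.08). For Trim30a, Zbp1 and Herc6 the direction matched the probe set used, which was called higher. Stat2 was not called on the probe set used, and Xaf1 was lower there without passing the test. These differences were not tested.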

How the results depend on the processing

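In GasKO vs WT, 14 of the 28 called members kept their call in every alternative that gave them a value: Dhx58, Ifi27, Ifi35, Ifit1, Ifit1bl1, Ifit2, Irf7, Oas1a, Oasl1, Oasl2, Parp9, Rtp4, Trim30a and Slfn9. In hGAS vs GasKO 11 of 20 did. The 27 members called higher in GasKO became 16 with only the 6 arrays compared and 13 to 31 when 1 array was left out. The 1 called lower became 2 with a filter at log2 6, with median centring and with the replicate block, and was 1 to 2 when 1 array was left out. The 2 called higher in hGAS vs GasKO became 1 with no filter, with probe sets averaged, without trend, with robust eBayes and with only the 6 arrays compared, and 1 to 2 when 1 array was left out. The 18 called lower there ranged from 11 to 29 when 1 array was left out. No member was called in hGAS vs WT under any alternative run. The 3 median differences moved by less than the spread between arrays, pooled over the groups. That spread is wide, since the average level of the members ran from -0.05 to 0.96 in GasKO. The hGAS vs WT median of 0.12 is small beside it, so this mark says little for that comparison. Xaf1 reversed in hGAS vs GasKO with probe sets averaged, to -5.81, since its 2 probe sets disagree. Where a group lost an array, the pooled spread was taken to hold for the 2 left. The cause of the other changes was not tested.

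The labels do not say what the shared replicate numbers mean. Deviations from group means of same-numbered arrays correlated above 0 in 8 of 9 pairs, from -0.0056 (WT and GasKO replicate 2) to 0.267, and different-numbered arrays in 6 of 18, from -0.292 to 0.113. All 3 GasKO and hGAS pairs passed 0.1, a mark chosen here, and 2 of 3 did so for WT with GasKO and for WT with hGAS. Deviations within a group sum to 0, so the same-numbered and different-numbered correlations are not independent. Whether the arrays are paired cannot be settled from them. With the replicate block, 31 members were called higher in GasKO vs WT, the main 27 among them, and 25 lower in hGAS vs GasKO. Array weights, whose estimation did not fully converge, gave 28 and 27. Both settings alter the test of every gene, and whether the members changed more than other genes in them was not tested. Members with 1 probe set of a kind had no value in some probe set alternatives, and the medians were not recomputed for the filters, which they do not use.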

Other observations

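Among the 50 genes with the largest excess of GasKO replicate 1 over replicate 2, out of 11274 tested, 20 were members and 8 came from the further list of interferon-stimulated genes. Of the members, Oas2 had an excess of 2.72 (rank 2) and Usp18 of 2.47 (rank 3), on the log2 scale. The further list added Ifi209 (2.30), Slfn4 (1.78) and Ddx60 (1.59). Among the 50 genes with the largest excess of hGAS replicate 1 over the mean of replicates 2 and 3, 9 were members and 2 came from the further list, Ifi47 (1.11) and Nlrc5 (0.60). These are ranks of differences between single arrays and have no test.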
